A study of Mus musculus with 2 samples.

Results

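The 8 genes Lyve1, Timd4, Folr2, Mrc1, Cd163, F13a1, Cbr2 and Pf4 form a list of transcripts that mark the resident macrophages of tissues. All 8 were found among the 21745 genes that the MI and the sham data both held. They were listed by name for this account with earlier results of these data known, and none of them was used to assign cells to types. Only where macrophages are compared by which of the 8 genes they held did the genes' own values choose the cells. Single cells were profiled by Drop-seq, in which beads in droplets label the transcripts of a cell with its barcode and every transcript with a molecular tag (UMI). The hearts came from male wild-type C57BL6/J mice aged 8 to 10 weeks. The MI library came from 1 heart taken 14 days after the left anterior descending coronary artery was tied off to cause a myocardial infarction. The sham library came from a pool of 4 hearts taken 14 days after the same operation with the suture left loose. Each group was thus 1 library, so no difference between MI and sham could be tested and none had a replicate check. The sham value is a mean over pooled animals, the MI value belongs to a single animal, and females were not studied.

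Resident macrophages settle in the heart from embryonic precursors, renew themselves slowly, and clear dying cells and debris around vessels and muscle fibres. Macrophages that arise from blood monocytes enter after injury and can take up parts of the resident programme with time. Most products of the 8 genes serve uptake or secretion. Lyve1 encodes a hyaluronan receptor, which lymphatic endothelium also carries. Mrc1 encodes the mannose receptor, Cd163 the scavenger receptor for haemoglobin bound to haptoglobin, Folr2 the folate receptor beta, and Timd4 a receptor for phosphatidylserine on dying cells. F13a1 encodes the A subunit of coagulation factor XIII, which crosslinks fibrin, Pf4 the chemokine platelet factor 4, which megakaryocytes also make, and Cbr2 a carbonyl reductase.

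In the GENCODE vM21 annotation of GRCm38, which is mm10, all 8 are protein-coding genes. Lyve1 lies at chr7:110850607-110863239 and Folr2 at chr7:101839988-101857194, both on the minus strand. Timd4 lies at chr11:46810800-46844332 on the plus strand and Cbr2 at chr11:120729489-120732114 on the minus strand. Mrc1 at chr2:14229392-14332057, Cd163 at chr6:124304656-124330527 and Pf4 at chr5:90772435-90773383 are on the plus strand, and F13a1 at chr13:36867178-37050244 is on the minus strand. Antisense genes are annotated over Folr2 (Gm10602) and over F13a1 (Gm49144 and Gm30489). The sources used here do not say whether strand was used in counting, so reads of these partners cannot be told apart from those of Folr2 and F13a1.

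The RefSeq promoter table of build GRCm38.p6 held 7 of the 8 genes and not Lyve1. The 250 bases before each start were searched on both strands for GAGGAA, the core letters bound by the macrophage factor PU.1, and for TGCTGA, the core of the element bound by Maf factors. GAGGAA was present in 4 of the 7 windows and in 23.3% of 32851 mouse promoters of the same length. TGCTGA was present in 2 of the 7 and in 16.1% of the promoters. A match describes letters only and is not a binding site. Shown here are the stretches before the first transcribed base for Mrc1, with 3 matches, for F13a1 and Pf4, with 1 each, and for Timd4, with 2, written 5′ to 3′ with the matched letters in capitals (on the strand shown, GAGGAA may stand as its reverse complement TTCCTC, and for the Maf core the reverse complement is TCAGCA).
Mrc1, chr2:14229164-14229391, plus strand: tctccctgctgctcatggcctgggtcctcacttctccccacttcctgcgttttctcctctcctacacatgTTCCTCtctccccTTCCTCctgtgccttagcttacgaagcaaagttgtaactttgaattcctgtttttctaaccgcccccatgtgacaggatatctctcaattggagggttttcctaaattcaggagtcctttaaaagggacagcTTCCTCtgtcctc
F13a1, chr13:37050245-37050494, minus strand: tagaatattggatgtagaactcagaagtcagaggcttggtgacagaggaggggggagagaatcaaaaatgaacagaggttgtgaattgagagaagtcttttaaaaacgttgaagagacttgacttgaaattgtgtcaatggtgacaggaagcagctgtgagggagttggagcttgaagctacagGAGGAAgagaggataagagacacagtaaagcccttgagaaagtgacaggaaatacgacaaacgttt
Pf4, chr5:90772185-90772434, plus strand: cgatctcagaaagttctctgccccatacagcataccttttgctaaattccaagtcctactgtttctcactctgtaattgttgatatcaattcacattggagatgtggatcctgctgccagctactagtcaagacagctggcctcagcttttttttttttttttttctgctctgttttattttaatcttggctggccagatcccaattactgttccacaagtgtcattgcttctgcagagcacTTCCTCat
Timd4, chr11:46810549-46810785, plus strand: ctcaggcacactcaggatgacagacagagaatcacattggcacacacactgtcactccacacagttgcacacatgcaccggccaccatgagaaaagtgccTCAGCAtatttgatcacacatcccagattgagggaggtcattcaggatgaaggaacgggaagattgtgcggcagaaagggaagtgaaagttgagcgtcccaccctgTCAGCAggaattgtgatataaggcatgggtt
The capitals in the first 3 stretches are GAGGAA matches, and those in the Timd4 stretch are TGCTGA matches.

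A total of 33275336 UMIs from 8555 barcodes was deposited for MI (median 2466 per barcode), and 11307405 UMIs from 6337 barcodes for sham (median 1424). Only 5 barcodes were shared by both libraries. After cells with over 25% mitochondrial UMIs and called doublets were removed, 8294 MI and 5971 sham cells were kept. Cells were then gated by how many distinct markers of a class they held, with none of the 8 genes among the markers. Macrophages, cells with at least 3 of 10 macrophage markers, numbered 3228 in MI and 1273 in sham, which is 38.9% (37.9 to 40.0) and 21.3% (20.3 to 22.4) of kept cells. Dendritic cells numbered 170 in MI and 116 in sham, and lymphatic endothelial cells 37 and 92. Lymphocytes, 200 in MI and 46 in sham, should lack these genes and show what free RNA in droplets gives. All intervals are 95% intervals (Poisson for levels, Clopper-Pearson for shares, conditional binomial for ratios) and cover counting error only. Levels are CPM, a gene's UMIs scaled to the total UMIs of the gate, and shares of cells were taken after each cell was thinned to 500 UMIs, since median depth in macrophages was 1763.5 UMIs in MI and 1337 in sham.

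All 8 genes were lower in MI macrophages than in sham macrophages, but the size of the difference split them into groups. Lyve1, Timd4, Folr2, Cd163 and Cbr2 were at least 8-fold lower, F13a1 lay between, and Mrc1 and Pf4 were close to 2-fold lower. All 8 were at least 2-fold lower, which held for 11.8% of the 11345 genes with at least 20 UMIs in the gate, while 9.26% of these were at least 2-fold higher. At least 4-fold lower were 6 of the 8 and 3.01% of all genes, and at least 8-fold lower 5 of the 8 and 1.14%. The median log2 ratio of MI over sham was -3.87 over the 8 genes and -0.11 over all genes. Scaling by the median of ratios shifts every log2 ratio in this gate up by that 0.11, and with it 7 of the 8 remain at least 2-fold lower, with Mrc1 at -0.92.

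**Figure D1:**
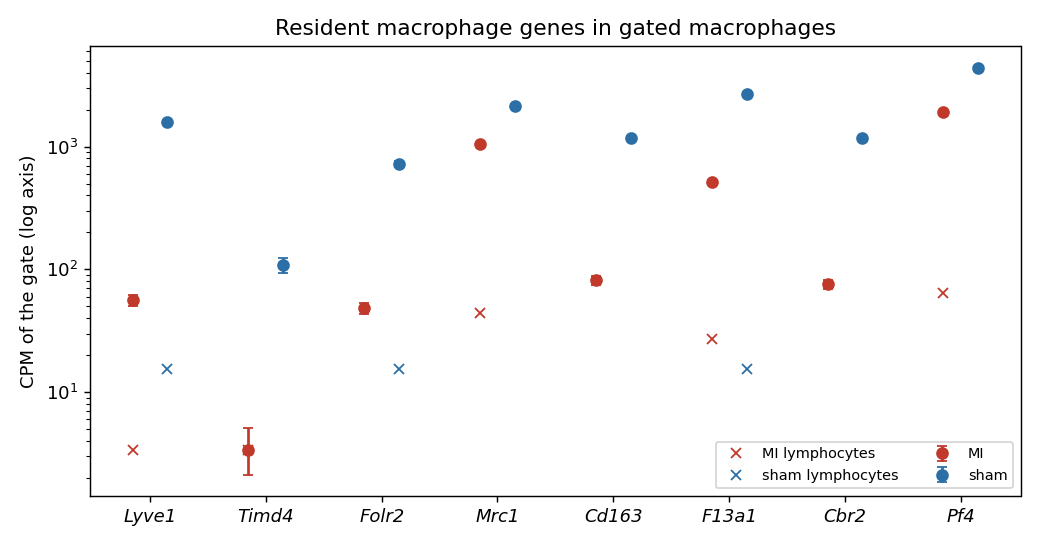
Level of each gene in gated macrophages as CPM on a log axis, MI in red left of sham in blue, with 95% Poisson intervals on the points; crosses give lymphocytes of the same library where any UMI was seen. All 8 MI points lie below the sham points, with Lyve1 at 56.0 against 1581 CPM and Mrc1 at 1051 against 2145 CPM, and the MI point of Timd4 lies beside a lymphocyte cross that stands for 1 UMI.

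Among the uptake receptors, Lyve1 stood at 56.0 CPM (50.4 to 62.0) in MI macrophages and at 1581 CPM (1525 to 1638) in sham macrophages, giving a log2 ratio of -4.82 (-4.98 to -4.66). After thinning, 1.80% (58 of 3228) of MI macrophages and 38.9% (495 of 1273) of sham macrophages held a Lyve1 UMI, and unthinned the shares were 3.87% and 55.7%. Lymphocytes held it after thinning in 0 of 200 MI cells and in 1 of 46 sham cells. The 0 of 200 allows a share of up to 1.50% by the limit of 3 counts and 1.83% by the exact interval. The 1.80% of MI macrophages lies between these limits. Unthinned, at median depths of 1238 and 1242 UMIs, Lyve1 was seen in 1 of 200 MI lymphocytes (0.500%, 0.0127 to 2.75) and 1 of 46 sham lymphocytes. Its low MI level came with fewer positive cells than in sham. Unthinned, positive cells held 2.94 UMIs each in MI and 4.28 in sham. The mean over all MI macrophages was 0.114 UMIs per cell, so the MI UMIs were not spread evenly. Of the 367 Lyve1 UMIs in MI macrophages, 1 cell held 22.

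Timd4 was sparse in both libraries, with 22 UMIs over 3228 MI macrophages and 207 over 1273 sham macrophages. That is 3.36 CPM (2.10 to 5.08) in MI against 108 CPM (93.6 to 124) in sham, giving a log2 ratio of -5.01 (-5.71 to -4.37). Unthinned, it was seen in 14 of 3228 MI macrophages (0.434%), in 1 of 200 MI lymphocytes (0.500%, 0.0127 to 2.75) and in 0 of 1558 MI fibroblasts, which allows a share of up to 0.193%. The lymphocyte value rests on 1 UMI and does not set the MI level apart from background, while the fibroblasts lay below it. In sham it was seen in 13.6% of macrophages and in 0 of 46 lymphocytes.

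Folr2 stood at 48.1 CPM (42.9 to 53.7) in MI against 718 CPM (681 to 757) in sham, giving a log2 ratio of -3.90 (-4.08 to -3.72). Cd163 stood at 81.3 CPM (74.6 to 88.5) in MI against 1167 CPM (1119 to 1217) in sham, giving a log2 ratio of -3.84 (-3.98 to -3.71). These receptors for folate and for haemoglobin complexes were thus lower by a similar factor, with overlapping intervals. Thinned shares were 2.14% in MI and 26.4% in sham for Folr2, and 3.13% in MI and 33.0% in sham for Cd163, with 0 of 200 MI lymphocytes for either gene.

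Mrc1, the mannose receptor, was the receptor gene nearest to its sham level. It stood at 1051 CPM (1027 to 1076) in MI against 2145 CPM (2080 to 2211) in sham, giving a log2 ratio of -1.03 (-1.08 to -0.97). Thinned cells held it in 35.2% of MI and 61.8% of sham macrophages, against 2.50% of MI lymphocytes and 0 of 46 sham lymphocytes. Positive cells held 3.28 UMIs each in MI and 3.79 in sham.

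Among the secreted products, Pf4 followed Mrc1 and F13a1 lay between the groups. Pf4 stood at 1911 CPM (1877 to 1944) in MI against 4406 CPM (4312 to 4501) in sham, giving a log2 ratio of -1.21 (-1.25 to -1.17), and was seen after thinning in 42.6% of MI and 76.7% of sham macrophages. F13a1 stood at 513 CPM (496 to 530.3) in MI against 2668 CPM (2595 to 2742) in sham, giving a log2 ratio of -2.38 (-2.44 to -2.32), with 21.0% of MI and 58.9% of sham cells positive. Lymphocytes held Pf4 in 3.50% and F13a1 in 1.50% of MI cells and in 0 of 46 sham cells after thinning. Pf4 is also a platelet gene, and the 5 other platelet genes checked (Ppbp, Itga2b, Gp9, Gp1bb, Treml1) summed to 8.09 CPM in MI macrophages and 16.1 CPM in sham macrophages. The enzyme gene Cbr2 stood with the receptors of large difference, at 75.4 CPM (68.9 to 82.3) in MI against 1178 CPM (1130 to 1227) in sham, giving a log2 ratio of -3.97 (-4.11 to -3.82), with 3.16% of MI and 40.9% of sham cells positive after thinning.

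Macrophages made up more of the MI library, so the number of positive macrophages per 1000 kept cells was also counted. After thinning, macrophages with a Mrc1 UMI numbered 137 per 1000 in MI and 132 in sham, and those with a Pf4 UMI 166 in MI and 163 in sham. Macrophages with a F13a1 UMI numbered 81.7 in MI and 126 in sham. Those with a Lyve1 UMI numbered 6.99 per 1000 in MI and 82.9 in sham, with Cbr2 12.3 and 87.3, with Folr2 8.32 and 56.3, with Cd163 12.2 and 70.3, and with Timd4 0.482 and 11.2. Unthinned, where the MI cells were the deeper ones, the values were 253 and 182 for Mrc1, 257 and 195 for Pf4, and 163 and 168 for F13a1. For each of these genes the order of the libraries was the same with and without thinning, while the size of the difference changed.

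By their share of all kept UMIs, the 8 genes fell into those found mostly in the macrophage gate and Lyve1. Such a share also depends on how many cells each gate holds, and levels in other gates are given below. Macrophages held between 85.3% and 91.7% of the kept UMIs of each of the other 7 genes in MI and between 84.1% and 88.6% in sham. Of the Lyve1 UMIs, macrophages held 39.8% in MI and 71.3% in sham, and lymphatic endothelial cells held 39.2% in MI and 12.8% in sham. In both libraries Lyve1 was highest in lymphatic endothelium and next in macrophages, with intervals that do not overlap. Blood endothelial cells stood at 15.6 CPM of Lyve1 in MI against 77.2 CPM in sham, and the gates below them in the order overlap their neighbours.

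**Figure D2:**
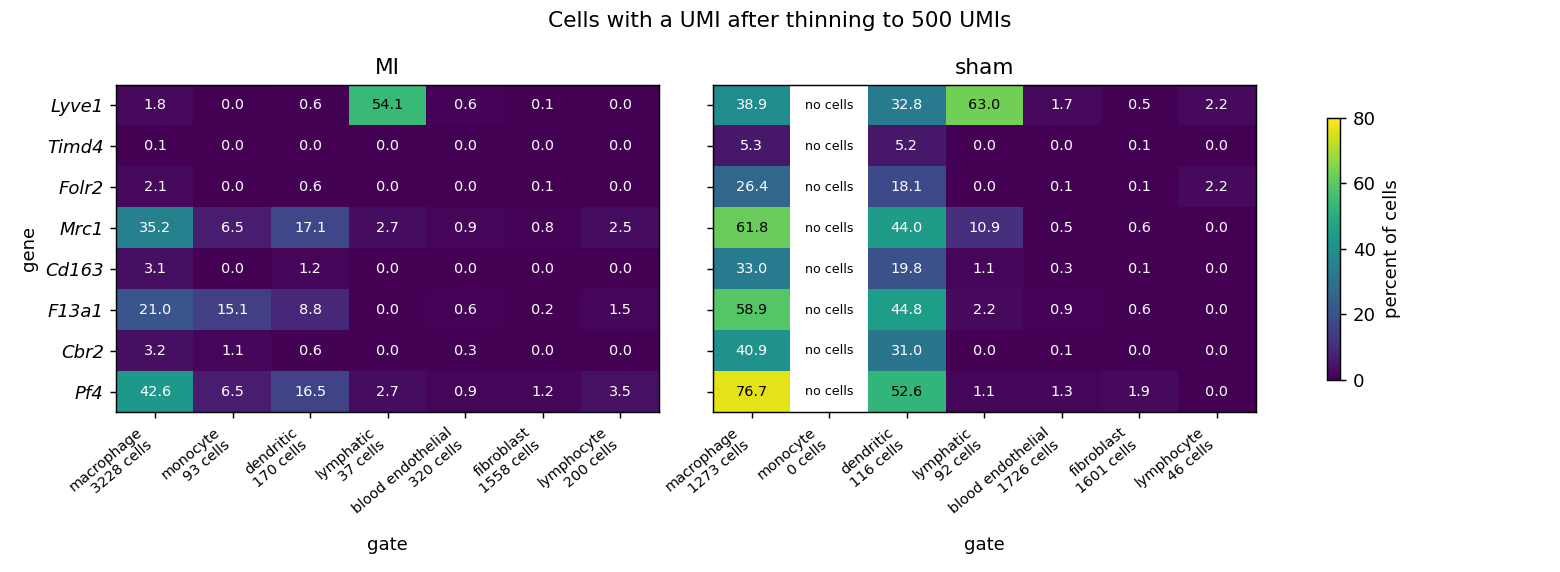
Percent of cells with a UMI of each gene (rows) in 7 gates (columns) after thinning to 500 UMIs, MI on the left and sham on the right, with the number of cells under each gate. Lymphatic endothelial cells hold Lyve1 at 54.1% in MI and 63.0% in sham and little of the other genes, and the sham dendritic gate follows the macrophage pattern.

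In lymphatic endothelium Lyve1 stood at 3160 CPM (2842 to 3503) in MI against 3482 CPM (3196 to 3786) in sham, giving a log2 ratio of -0.14 (-0.34 to 0.05), beside the -4.82 of macrophages. After thinning it was seen in 20 of 37 MI cells (54.1%) and 58 of 92 sham cells (63.0%), and unthinned in 70.3% and 77.2%. The direction of this ratio depended on how the 37 MI cells were chosen, from -0.98 to 0.29 over 8 alternatives, and 1 MI cell held 31.3% of the MI UMIs, so no difference is read from it. The range in macrophages over 10 alternatives, -5.32 to -4.65, does not reach that of lymphatic endothelium. All 8 lymphatic markers were found in at least 10% of the gated cells of each library. These markers differed in both directions. Prox1, the transcription factor of lymphatic identity, had a log2 ratio of 0.33 (-0.13 to 0.79), and Ccl21a, a chemokine of lymphatic vessels, of -2.90 (-3.07 to -2.74). Flt4 was at -0.86 (-1.40 to -0.35), Mmrn1 at -0.60 (-0.95 to -0.25) and Nts at 1.21 (0.68 to 1.76). The intervals of Reln, Pard6g and Tbx1 reached to both sides of no difference, as did that of Prox1.

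The other genes were rare in lymphatic endothelium, except Mrc1 in sham. Mrc1 stood at 26.3 CPM in MI, with 3 UMIs in 3 of 37 cells, and at 281 CPM in sham, with 44 UMIs in 28 of 92 cells, giving a log2 ratio of -3.42 (-5.75 to -1.78). In this gate 11.5% of the 2581 genes with at least 20 UMIs were at least 2-fold lower and 10.6% at least 2-fold higher, and of the 8 genes only Lyve1 and Mrc1 had that many UMIs. Timd4 and Folr2 had 0 UMIs in both libraries, which allows up to 26.3 CPM in MI against 19.1 CPM in sham. Cd163, F13a1 and Cbr2 had 0 UMIs in MI and 2, 3 and 1 in sham, and Pf4 had 5 in MI and 3 in sham. Macrophage markers were few there, 13 UMIs over the 10 markers in MI (113.8 CPM) and 16 in sham (102 CPM). Conversely, of the macrophages with a Lyve1 UMI, 1 of 125 in MI (0.800%) and 14 of 709 in sham (1.97%) held a lymphatic marker, against 1.03% and 2.13% of those without.

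The dendritic gate gave no separate picture of the sham library, since most of its cells carried macrophage RNA. C1qa, a complement gene of macrophages, was seen in 29.4% of gated dendritic cells in MI and 70.7% in sham, and the dendritic cell receptor gene Flt3 in 25.3% in MI and 3.45% in sham. Over the whole gate all 8 genes were at least 2-fold lower in MI, against 11.0% of the 4172 genes with at least 20 UMIs (9.42% were at least 2-fold higher). The median log2 ratio of the 8 was -3.83. That count carries the same macrophage RNA, so the gate was split by whether a cell held a UMI of C1qa, C1qb or C1qc, a split made after the data were seen.

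Dendritic cells without C1q, 80 in MI and 28 in sham, held little of the 8 genes. Lyve1, Timd4, Folr2 and Cd163 had 0 UMIs in MI and 1, 2, 0 and 1 UMIs in sham. Mrc1 stood at 86.5 CPM (46.1 to 148) in MI against 56.1 CPM (11.6 to 164) in sham, and Pf4 at 120 CPM (71.0 to 189) in MI against 224 CPM (115.9 to 391.8) in sham, and for both genes the intervals of the libraries overlap. F13a1 stood at 53.2 CPM in MI (8 UMIs) and had 0 UMIs in sham, and Cbr2 had 1 UMI in MI and 0 in sham. Of the dendritic genes only Flt3 and Cd209a were looked at here, and both are markers of the gate. They were higher in these cells than in gated cells with C1q. Flt3 stood at 226 against 80.5 CPM in MI and 56.1 (3 UMIs) against 6.10 CPM (1 UMI) in sham, where the intervals overlap. Cd209a stood at 299 against 45.3 CPM in MI and 467 against 73.2 CPM in sham. In the cells with C1q, 90 in MI and 88 in sham, F13a1 stood at 388 CPM (306 to 484) in MI against 2672 CPM (2427 to 2934) in sham, and Pf4 at 1102 CPM (961 to 1258) in MI against 3330 CPM (3057 to 3622) in sham. For both genes the MI value lay below that of MI macrophages, and for Pf4 the sham value lay below that of sham macrophages. Lyve1 stood at 1397 CPM in sham, with 51 of 88 cells positive, while its 7 UMIs in MI were all in 1 of 90 cells.

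Monocytes, the blood cells that enter injured tissue, passed their gate only in the MI library, with 93 cells there and 0 of 5971 in sham (up to 0.0502% by the limit of 3 counts). F13a1 stood in them at 336 CPM (260 to 428), beside 513 CPM in MI macrophages. Pf4 stood at 326 CPM (251 to 416) and Mrc1 at 138 CPM (90.6 to 200.1), both well below the macrophage levels of 1911 and 1051 CPM. Cbr2 had 4 UMIs, and Lyve1, Timd4, Folr2 and Cd163 had 0 UMIs, which allows up to 15.3 CPM.

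Counting the 8 genes in each macrophage gave the same difference cell by cell. After thinning, MI macrophages held 1.09 of the 8 genes on average and sham macrophages 3.42. None of the 8 was seen in 34.2% (32.6 to 35.9) of MI and 5.42% (4.24 to 6.81) of sham macrophages. At least 3 were seen in 314 MI cells, 9.73% (8.73 to 10.8), and in 882 sham cells, 69.3% (66.7 to 71.8). Without Mrc1 and Pf4, at least 2 of the remaining 6 genes were seen in 132 MI cells, 4.09%, and in 791 sham cells, 62.1%.

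**Figure D3:**
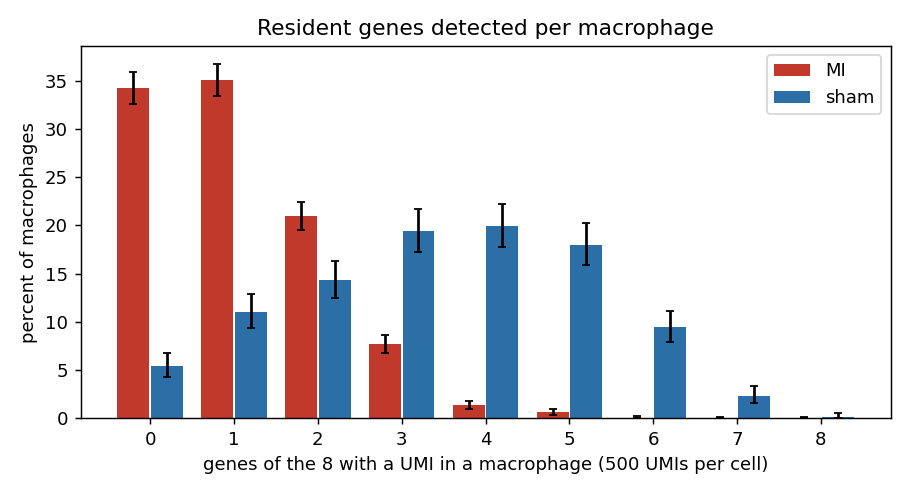
Percent of gated macrophages by how many of the 8 genes had a UMI after thinning to 500 UMIs, MI in red left of sham in blue, with 95% Clopper-Pearson intervals. MI macrophages pile up at 0 and 1 gene and sham macrophages at 3 to 5.

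Within each library the 8 genes were found together more often than their shares alone would give. For each of the 28 pairs, the macrophages with a UMI of both genes were divided by the number that the product of the 2 shares gives. In MI the median ratio was 1.58 over the 23 pairs with at least 1 such cell expected, 22 of these ratios were above 1, and the interval lay above 1 for 18. In sham the median was 1.12, all 28 ratios were above 1, and the interval lay above 1 for 14. A ratio cannot exceed the inverse of the larger share, which is as low as 1.30 for pairs with Pf4 in sham, so the ratios are not compared between the libraries.

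In MI, Lyve1, Folr2, Cd163 and Cbr2 were each rare, and all pairs among them had intervals above 1. Their ceilings were high, between 31.6 and 46.8, so the size of these ratios is not ranked against pairs with common genes. Lyve1 and Folr2 shared 13 cells where 1.24 were expected, a ratio of 10.5 (5.58 to 17.9), and Lyve1 and Cd163 shared 18 where 1.81 were expected, a ratio of 9.92 (5.88 to 15.7). Lyve1 with Cbr2 gave 7.09 (3.78 to 12.1), Folr2 with Cbr2 5.96 (3.17 to 10.2), Cd163 with Cbr2 4.70 (2.63 to 7.75) and Folr2 with Cd163 4.17 (1.91 to 7.91). The few MI macrophages that held one of these 4 genes thus held another more often than those without it. The share was still at most 31.0% for any pair, that of Cd163 in cells with Lyve1. F13a1 went with Lyve1 at 3.04 (2.14 to 4.19), with Cd163 at 2.45 (1.83 to 3.21) and with Cbr2 at 2.19 (1.61 to 2.92), while Mrc1 and Pf4, each common in MI, gave 1.23 (1.14 to 1.34) under a ceiling of 2.35. Timd4 was seen in only 4 MI cells after thinning. Unthinned, 9 of its 14 cells also held Lyve1 where 0.542 were expected, a ratio of 16.6 (7.59 to 31.5), and 7 held Cbr2 where 1.40 were expected. With Cd163 the ratio was 5.19 (1.69 to 12.1). Unthinned ratios can also rise with the spread of depth between cells.

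Put as shares, Cd163 was seen in 31.0% of the 58 MI macrophages with Lyve1 and in 2.62% of those without it. In sham, Cd163 was seen in 40.2% of the 495 macrophages with Lyve1 and in 28.4% of those without. F13a1 was seen in 63.8% of MI macrophages with Lyve1 and 20.2% without, and in sham in 76.8% with and 47.6% without. MI macrophages that held Lyve1 were thus closer to the sham cells in Cd163 and F13a1 than were the rest of the MI macrophages. In sham, Lyve1 with Timd4 gave 1.84 (1.36 to 2.44) under a ceiling of 2.57, with 48 of the 67 Timd4 cells also holding Lyve1, and Folr2 with Mrc1 gave 1.04 (0.91 to 1.19) under a ceiling of 1.62.

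**Figure D4:**
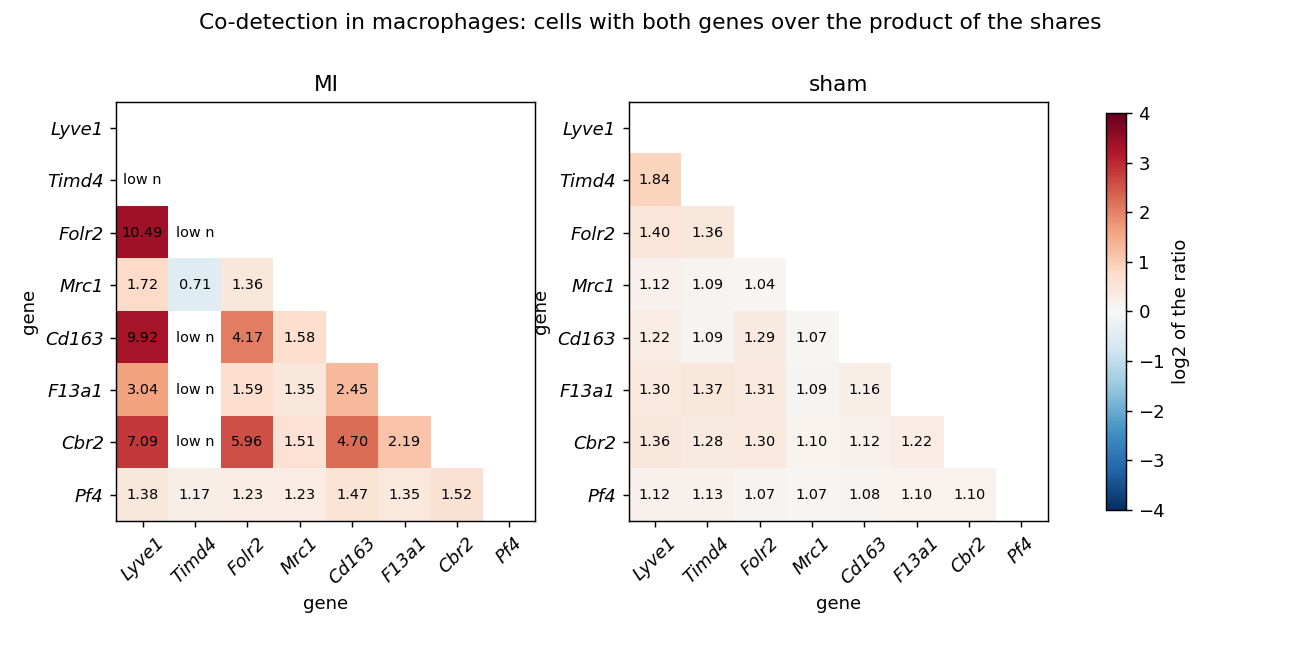
Ratio of macrophages holding both genes of a pair to the number given by the product of their shares, after thinning to 500 UMIs, MI on the left and sham on the right, coloured by the log2 of the ratio; "low n" marks pairs with under 1 cell expected. In MI the pairs among Lyve1, Folr2, Cd163 and Cbr2 lie between 4.17 and 10.5. Ceilings are lower in sham, 2.57 for Lyve1 with Folr2 against 46.8 in MI, so colours are read within a panel.

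Other genes of macrophage states differed in both directions between the libraries in gated macrophages, again against 11.8% of all genes at least 2-fold lower and 9.26% at least 2-fold higher. Of 20 other genes of resident or perivascular macrophages, 19 had at least 20 UMIs, and their median log2 ratio was -1.34, with 11 at least 2-fold lower and 0 higher. Retnla, which encodes the secreted protein resistin-like alpha, was at -8.66 (-9.54 to -7.91), the lectin gene Cd209g at -6.98 (-12.32 to -4.41), with 1 UMI in MI and 37 in sham, and the eotaxin gene Ccl24 at -4.35 (-4.65 to -4.06). Retnla, Cd209g, Ccl24 and the MHC class II genes belong to families of similar genes, and reads shared within a family make their counts uncertain.

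All 8 MHC class II genes, which present antigen, had at least 20 UMIs, and their median was -1.35, with 7 at least 2-fold lower and 0 higher. The invariant chain Cd74 was at -2.73 (-2.78 to -2.69), H2-Eb1 at -1.37 and H2-Ab1 at -1.33. In the other direction, the median was 3.20 for lipid-associated macrophage genes, 9 of 11 at least 2-fold higher and 0 lower, and 2.39 for monocyte genes, 9 of 12 higher and 2 lower (Ifitm6 and Ly6c1, named after their values were seen). Osteopontin, Spp1, was at 9.53 (8.41 to 10.98, 6 UMIs in sham) and the glycoprotein Gpnmb at 8.16 (6.31 to 11.21, 2 UMIs in sham). Arginase 1, Arg1, was at 7.48 or more, since sham had 0 UMIs, set to a floor of 3 counts over the gate. Among monocyte genes, thrombospondin 1, Thbs1, was at 7.09 (5.54 to 9.37, 3 UMIs in sham), the chitinase-like Chi3l3 at 6.31 (3.82 to 11.61, 1 UMI in sham) and fibronectin, Fn1, at 4.78. All of the monocyte list but Ccr2, Ly6c1, Fn1 and Thbs1 are markers of the monocyte gate. Their values in macrophages are set in part by the gating.

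Within each library, macrophages with at least 3 of the 8 genes were set against those with 0, which had similar depth (median 1651.5 and 1779 UMIs in MI, 1364.5 and 1173 in sham). Of the cells with at least 3, 247 of 314 in MI and 247 of 882 in sham held exactly 3. The sizes of these ratios are therefore not compared between the libraries. MHC class II genes were lower in the cells that held the resident genes. Of 7 with at least 20 UMIs, 7 were at least 2-fold lower in MI and 7 in sham, against 5.45% of 8879 other genes in MI and 9.12% of 7281 in sham, with median log2 ratios of -3.44 in MI and -2.04 in sham. H2-Ab1 was at -3.56 (-3.81 to -3.31) in MI against -2.09 (-2.20 to -1.99) in sham. The monocyte chemokine receptor Ccr2 was at -1.73 (-1.93 to -1.54) in MI against -4.99 (-5.43 to -4.56) in sham.

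Most of the other resident genes went with the 8. At least 2-fold higher were 10 of 14 in MI and 12 of 19 in sham, against 3.50% of other genes in MI and 13.9% in sham, with median log2 ratios of 1.28 in MI and 1.35 in sham. The sham cells with 0 of the 8 numbered only 69, and Cd209f, Cd209g, Vsig4 and Siglec1 had 0 UMIs in them. Their ratios are lower bounds that lie under 2-fold, so they could not be counted as higher. Fcna, which encodes the lectin ficolin A, was at 3.88 (3.32 to 4.48) in MI and at 2.83 or more in sham, and the endothelin receptor gene Ednrb was at 3.53 (3.03 to 4.05) in MI against 0.55 (-0.41 to 1.70) in sham. Gas6, a bridging ligand in the uptake of dying cells, was at 2.33 (2.09 to 2.58) in MI against 2.84 (1.95 to 3.90) in sham, and Ccl24 at 4.27 (3.22 to 5.48) in MI against 4.43 (2.57 to 7.48) in sham. Retnla and Hpgd were among the exceptions in sham, at -0.09 (-0.38 to 0.22) and 0.15 (-0.22 to 0.54). Hpgd was also one in MI, at -0.41 (-0.91 to 0.06). Taken with Lyve1 alone, Retnla was seen in 12.7% of sham macrophages with Lyve1 and in 2.70% of those without. The lipid-associated and monocyte lists held genes that went both ways. Of lipid-associated genes, 1 of 11 was at least 2-fold higher and 1 lower in MI, and 2 of 8 higher and 3 lower in sham, with medians of 0.18 in MI and 0.07 in sham. Of monocyte genes, 1 of 12 was at least 2-fold higher and 4 lower in MI, and 0 of 4 higher and 1 lower in sham, with medians of -0.20 in MI and -0.18 in sham. The 4 lower in MI were Hp, Chi3l3, Vcan and Ccr2, and the 3 lipid-associated genes lower in sham were Lgals3, Cd9 and Lpl. Hp, Chi3l3 and Vcan are markers of the monocyte gate, so gating sets their values in part.

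**Figure D5:**
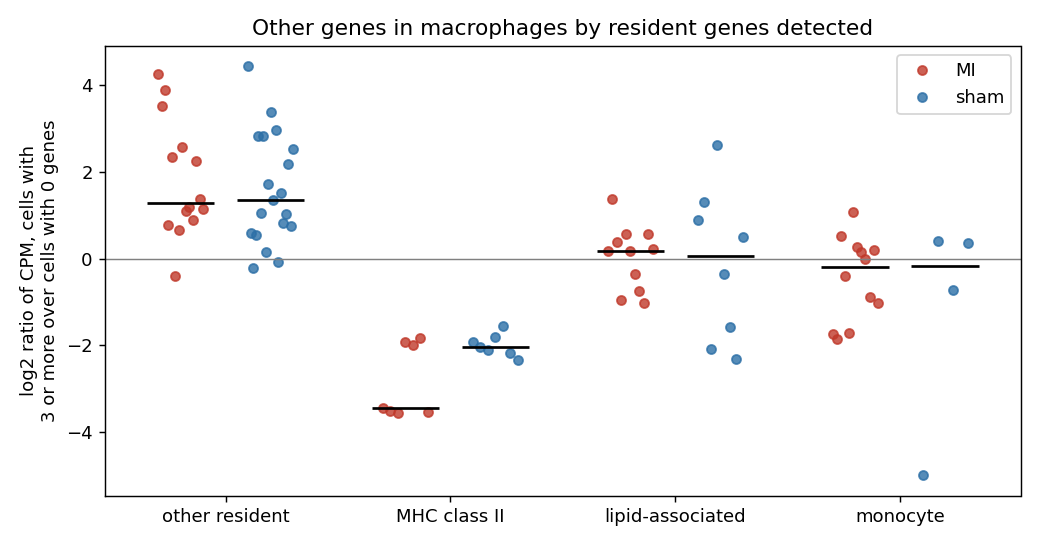
log2 ratio of CPM in macrophages with at least 3 of the 8 genes over those with 0, one point per listed gene with at least 20 UMIs in these cells, MI in red left of sham in blue, black bars the medians; genes with 0 UMIs in the cells without resident genes are placed at their lower bound. MHC class II genes lie below 0 in both libraries, at medians of -3.44 in MI and -2.04 in sham, and most other resident genes lie above 0.

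Arg1, which uses up arginine and was seen in the MI library's macrophages, was higher in those with several resident genes. It was 1.38 (1.15 to 1.60) higher on the log2 scale in MI macrophages with at least 3 of the 8 genes than in those with 0. It was seen in 18 of the 58 MI macrophages with Lyve1 (31.0%) and in 7.13% of those without, against 0.500% of MI lymphocytes. Of the MI macrophages with Cd163, 18.8% held Arg1, against 7.20% of those without, while with Folr2 it was 8.70% and 7.53%. For F13a1 the shares with Arg1 were 12.4% and 6.27%, for Pf4 10.2% and 5.61%, for Cbr2 13.7% and 7.36%, and for Mrc1 9.16% and 6.69%. Spp1 differed between the 8 genes. It was seen in 19.0% of MI macrophages with Lyve1 and 38.2% of those without, but in 48.0% with Pf4 and 30.3% without, and in 44.8% with F13a1 and 36.0% without. With Folr2 it was 37.7% and 37.9%, with Cd163 41.6% and 37.7%, with Mrc1 40.4% and 36.5%, and with Cbr2 35.3% and 37.9%. H2-Ab1 was at 6.90% with Lyve1 and 26.2% without, and its ratio interval lay below 1 for all of the 8 but Timd4.

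Across the 17 gates by library with at least 30 cells, the genes whose log2 levels followed the mean of the 8 most closely were Cd300lh (Pearson r = 0.976), Vsig4, a complement receptor of resident macrophages (0.960), Fcna (0.960), C1qa (0.943), Gpr34, Alox5, Cd300ld and Slc9a9 (0.928 to 0.938), out of 8673 candidates. C1qa is a marker of the macrophage gate, so its pattern is set in part by the gating. The points share 2 libraries, so these values only describe the pattern. Vsig4 was the closest gene to Cd163 (0.983), to Folr2 (0.966) and to Cbr2 (0.921), and the phospholipase gene Pla2g2d to Timd4 (0.989). Timd4 was high only in sham macrophages (108 CPM) and the sham dendritic gate (110 CPM), so its r rests mostly on these points. Lyve1, present in lymphatic endothelium as well, had the weakest best match, Ch25h at 0.880, and its r with the other 7 genes lay between 0.345 and 0.557.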

How the data were processed

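The authors deposited 1 table of whole-number UMI counts, genes by barcodes, for the MI library (1 heart) and 1 for the sham library (4 pooled hearts). The submitters' processing notes name mm10 and Seurat. The sources used here do not give the aligner, the counter or the annotation. No barcode held fewer than 500 genes, although no label states such a limit. The labels describe fixation of the hearts and do not say how cells were suspended. Values were used as counts, without a model across cells.

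Barcodes with over 25% mitochondrial UMIs (114 in MI, 34 in sham) and doublets called by scrublet in scanpy 1.11.5 (147 and 332) were removed. A cell took a class by its number of distinct markers, at least 3 for macrophages and 2 for dendritic and lymphatic cells, and stayed ungated when it reached the minimum in more than 1 family of classes, in none, or tied (2451 in MI, 1000 in sham). Some markers are listed under older symbols (Emr1 for Adgre1, Chi3l3 for Chil3). Neutrophils were set apart by a rule made after the data were seen, where their markers outnumber those of macrophages. UMIs were summed per gate. CPM intervals are exact Poisson, ratio intervals conditional binomial, share intervals Clopper-Pearson, all at 95%, and a gene with 0 UMIs in 1 library was set to 3 counts over the gate, which makes its ratio a bound. A count of 0 allows up to 3 counts of the total. Genes needed 20 UMIs in the gate over both libraries to enter counts of genes. Thinning drew 500 UMIs per cell without replacement with a fixed seed and left out no kept cell. Likeness used log2(CPM + 10) and genes with at least 50 UMIs in macrophages. Ribosomal, mitochondrial, Gm and Rik genes were left out there. Of other lists, the 3 genes whose ratio intervals lay farthest from 1 are named, and the genes named in the comparison of cells with many and no resident genes were chosen after their values were seen. The steps were tested on simulated data. Python 3.11.15, numpy 2.4.6, scipy 1.17.1, pandas 2.3.3 and matplotlib 3.10.9 were used.

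The 8 genes and the other lists were chosen with earlier results of these data known. Alternatives changed the scaling, thinning, markers, doublets, mitochondrial limit, barcodes ending in N (317 in MI, 671 in sham, kept as deposited) and a minimum of 1000 UMIs per cell. The minimum was chosen after seeing the data.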

Additional observations from a re-analysis of the deposited data

How the results depend on the processing

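No paired analysis was possible because each group was 1 library. For the same reason no replicate could be left out, and differences between animals, operations and library preparations cannot be told apart from MI. Over 10 alternatives the median log2 ratio of the 8 genes in macrophages ranged from -3.98 to -3.68, with -3.68 when cells were gated after thinning to 500 UMIs. Over 11 alternatives 7 or 8 genes were at least 2-fold lower in MI. Each of the 8 kept its direction under all 10 alternatives run for it, from -6.02 to -4.53 for Timd4, with the fewest UMIs, and from -1.16 to -0.92 for Mrc1. The Lyve1 ratio in lymphatic endothelium changed sign with the choice of cells. It was 0.15 with 1 more marker required per class (30 MI and 81 sham cells), 0.29 when gated after thinning (24 and 69 cells), -0.98 with cells of 2 families kept (54 and 109 cells) and -0.96 with the mitochondrial limit at 10%. The median co-detection ratio ranged from 1.40 to 1.78 in MI and from 1.11 to 1.18 in sham over 9 alternatives. The cause of these shifts was not tested. Depth limits the low genes most: in MI macrophages Timd4 had 22 UMIs in all, in lymphatic endothelium 7 of the 8 genes had under 50 UMIs in each library, and the 28 sham dendritic cells without C1q held at most 12 UMIs of any of the 8.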
